A study of Mus musculus with 24 samples.

Results

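The collagens, laminins and integrins were examined as a set of 84 genes out of 19938 measured in 4T1 cells, a mouse mammary carcinoma line. The set was chosen by symbol: every gene named Col, Lama, Lamb or Lamc followed by a digit, every Itga or Itgb gene other than Itgb1bp and Itgbl1, and Fn1 and Thbs1. It held 44 collagens, 10 laminins, 27 integrin subunits, Fn1, Thbs1 and Itgb3bp, which met the rule by its name only and encodes a centromere protein. Col21a1 was not analysed here. Control cells were grown in RPMI-1640 medium that held 3 mM glucose, without lactic acid. Treated cells received 20 mM lactic acid in the same 3 mM glucose medium and were collected on days 1, 3, 4, 5, 7, 9 and 11. Each of the 8 groups had 3 Affymetrix arrays, 24 in all. The study sought genes whose expression followed the longer survival that lactic acid gives glucose-starved cells. All groups were of the same established line. Replicates are labelled as biological, but nothing ties them to separate cultures, so every p-value here sets a difference against the spread of these arrays only. The labels give the control no time in culture, so lactic acid and time cannot be told apart in any comparison with control.

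Cells are held to their surroundings by integrins, receptors made of 1 alpha and 1 beta subunit that span the membrane. Their ligands include laminins and type IV collagen, which build the basement membrane under epithelia, fibronectin, and the fibrillar collagens of the stroma. A laminin is a trimer of 1 alpha, 1 beta and 1 gamma chain, and a collagen is a triple helix of 3 chains. In mammary tissue, contact with the basement membrane is known to support epithelial survival and shape, and carcinoma cells commonly change which matrix genes and receptors they express.

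Values were deposited as log2 signals from robust multi-array averaging (RMA). Array medians over all probe sets lay between 4.40 and 4.75, and their number limits the precision. Day 1 replicate 1 and day 9 replicates 2 and 3 had the highest medians. Day 1 replicate 1 also had an SD across probe sets of 2.165, against 2.392 to 2.518 on the other 23 arrays. Where leaving out these 3 arrays changed a call on day 1 or day 9, or moved a called value by over 1.5 times, the value without them is given too. Without them, day 9 rests on 1 array that is assumed to vary like the other groups. Changes are differences of group means in log2 units with their standard error (SE), tested with limma over all 19938 genes on all 24 arrays. A gene was called higher or lower at a Benjamini-Hochberg adjusted p below 0.05, and every adjusted p below is of that kind. In bulk RNA, fewer cells of a type and less RNA per cell cannot be told apart. Of 15 epithelial markers, 7 were below the median of all genes on every array, among them the adhesion gene Epcam at 4.10 to 4.96, and 4 were above it on every array, among them the keratins Krt8 at 10.12 to 11.25 and Krt18 at 10.68 to 11.78. The mean of the list was 5.73 to 5.80 in control, 5.57 to 5.88 on day 1, 5.95 to 6.0 at day 3, 5.73 to 5.82 on day 4 and 5.94 to 6.09 at day 5. It was 5.80 to 5.91 on day 7, 5.71 to 5.80 at day 9 and 5.76 to 5.80 on day 11. From control to day 11 the group mean went from 4.12 to 4.75 for Epcam, 5.20 to 5.65 for Cdh1, 5.23 to 6.96 for Cldn4 and 6.07 to 5.40 for Krt19, each called on 6 days. The part of these markers in the results was not tested.

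Of the 84 genes, 35 were called on at least 1 day and 49 on none. The called genes included 23 that rose and 14 that fell, with Itga2 and Col4a1 in both groups. In all, 10 genes were higher on every day from 3 to 11: the laminins Lama5, Lamb1, Lamb2 and Lamc1, the integrin subunits Itga1, Itga10 and Itgb5, the collagen Col4a5, and Fn1 and Thbs1. The matching tallies over all genes were not counted, so these numbers describe the members only. On day 1 against control, 1 gene was higher and 1 lower (1.19% each), against 2.30% and 2.52% of all genes. That day's split was 5 higher and 1 lower after cyclic loess, 0 and 1 after median centring, and 4 and 4 without the 3 arrays. On day 3, 11 were higher and 4 lower (13.1% and 4.76%), against 12.4% and 13.9% of all genes. On day 4, 13 were higher and 7 lower (15.5% and 8.33%), against 14.0% and 12.9%. On day 5, 21 were higher and 2 lower (25.0% and 2.38%), against 17.2% and 10.3%. On day 7, 17 were higher and 4 lower (20.2% and 4.76%), against 16.0% and 9.44%. On day 9, 11 were higher and 3 lower (13.1% and 3.57%), against 13.1% and 14.0%, or 12 and 1 after median centring and 16 and 3 without the 3 arrays. On day 11, 11 were higher and 5 lower (13.1% and 5.95%), against 14.0% and 11.8%. The shares of rising members were thus near those of all genes on days 3, 4, 9 and 11, a little above on day 7 and further above on day 5. The day 7 count of 17 was 15 after cyclic loess. The shares of falling members were below those of all genes on every day. The count of lower members was the less settled: without the 3 arrays it was 20 on day 4 and 16 on day 11. The share of all genes called lower was not counted without these arrays. Whether the members stayed below it there is therefore not known. The median change of the 84 genes lay between -0.13 and 0.09 on every day, against -0.04 to 0.07 for all genes, so the set as a whole moved little and the changes sat in a minority of its genes.

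**Figure D1:**
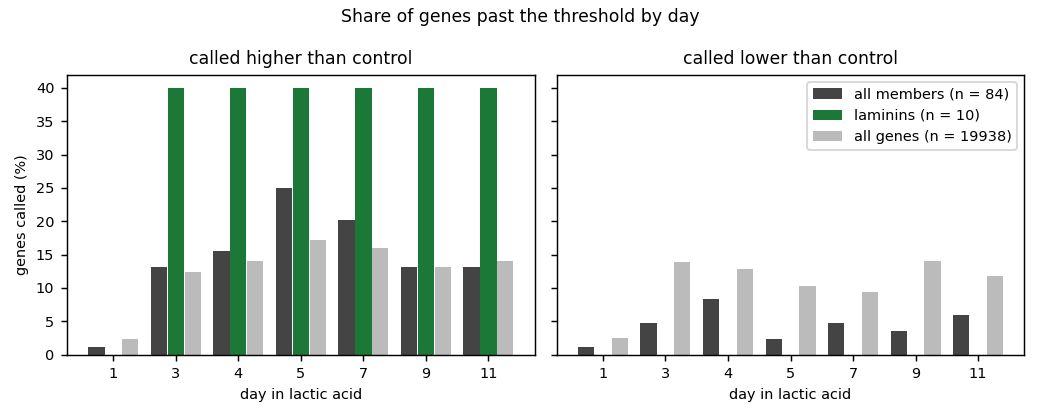
Percent of genes called higher (left) and lower (right) than control on each treated day, for the 84 collagen, laminin and integrin genes, the 10 laminins and all 19938 genes. On day 5, 25.0% of the 84 genes were called higher, against 17.2% of all genes, and the bars of the laminins stand for the same 4 genes from day 3 to day 11.

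Among the laminins, the chains of 2 trimers rose together and the rest were not called. Lama5, the alpha 5 chain found in most adult epithelial basement membranes, Lamb1 and Lamb2, the beta 1 and beta 2 chains, and Lamc1, the gamma 1 chain that pairs with either, were higher on all 6 days from day 3. On each of these days 4 of the 10 laminins were higher. The alpha 5 gene Lama5 had log2 signals of 9.07, 8.69 and 8.74 in control and 9.28, 9.01 and 9.04 on day 1, which overlapped. They were 9.88, 9.83 and 9.89 on day 3, 10.04, 10.02 and 9.94 at day 4, and 10.63, 10.50 and 10.58 on day 5. They were then 10.37, 10.09 and 10.16 on day 7, 10.21, 9.66 and 9.61 at day 9, and 9.62, 9.62 and 9.83 on day 11. All arrays from day 3 on lay above all control arrays, and day 5 was the highest group. The change was 1.03 (SE 0.14, adjusted p = 4.05e-06) on day 3, 1.74 (3.34-fold, SE 0.14, adjusted p = 2.18e-09) on day 5 and 0.86 (SE 0.14, adjusted p = 3.87e-05) on day 11. Day 9 gave 1.00 with all arrays and 1.38 with replicate 1 alone.

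The beta 2 gene Lamb2 had the largest laminin change. Its signals were 7.10, 6.90 and 7.03 in control, 7.24, 6.83 and 7.04 on day 1, and 8.45, 8.37 and 8.30 on day 3. They reached 9.17, 8.98 and 9.48 on day 7 and were 9.01, 8.72 and 8.93 at day 9 and 8.53, 8.46 and 8.49 on day 11. The day 1 arrays straddled the control range, and every later array lay above both groups. Lamb2 rose by 1.37 (SE 0.14, adjusted p = 5.44e-08) on day 3 and 2.20 (4.60-fold, SE 0.14, adjusted p = 1.33e-11) on day 7. From day 1 to day 3 it rose by 1.34 (SE 0.14, adjusted p = 6.61e-08).

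The beta 1 gene Lamb1 started high. Its control signals were 10.09, 10.04 and 10.09, and those of day 3 were 10.86, 10.83 and 10.88. Day 7 gave 11.55, 11.53 and 11.30, and day 11 gave 11.09, 11.11 and 11.21. No treated array from day 3 on overlapped the control. The change was 0.78 (SE 0.14, adjusted p = 9.43e-05) on day 3, 1.38 (adjusted p = 2.74e-08) on day 7 and 1.06 (adjusted p = 1.52e-06) on day 11. The gamma 1 gene Lamc1 was at 8.88, 8.81 and 8.93 in control, 9.60, 9.60 and 9.59 on day 3, 10.25, 10.33 and 10.45 at day 5, and 9.62, 9.82 and 9.92 on day 11. Lamc1 was highest on day 5, at 1.47 above control (2.77-fold, SE 0.12, adjusted p = 3.01e-09). On day 1 its arrays of 9.10, 9.41 and 9.29 were all above control, but the difference of 0.39 was not called (adjusted p = 0.0623); without the 3 arrays it was 0.48 and called (adjusted p = 0.00515). Between days 3 and 11 no laminin was called: Lama5 differed by -0.17 (adjusted p = 0.44), Lamb1 by 0.28 (adjusted p = 0.183), Lamb2 by 0.12 (adjusted p = 0.608) and Lamc1 by 0.19 (adjusted p = 0.32).

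The other 6 laminins were Lama1, Lama2, Lama3 and Lama4, Lamb3, the beta 3 chain of the laminin that anchors epithelial cells at hemidesmosomes, and Lamc3. Each of Lama1 to Lama4 was below the median of all genes on every array, with group means of 3.19 to 4.08. Lamb3 lay near that median, at 5.09, 5.16 and 5.19 in control and 5.54, 5.49 and 5.47 on day 1, which did not overlap. Its day 1 difference was 0.35 (SE 0.11, adjusted p = 0.0673), and on later days it stayed between -0.13 and 0.01.

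**Figure D2:**
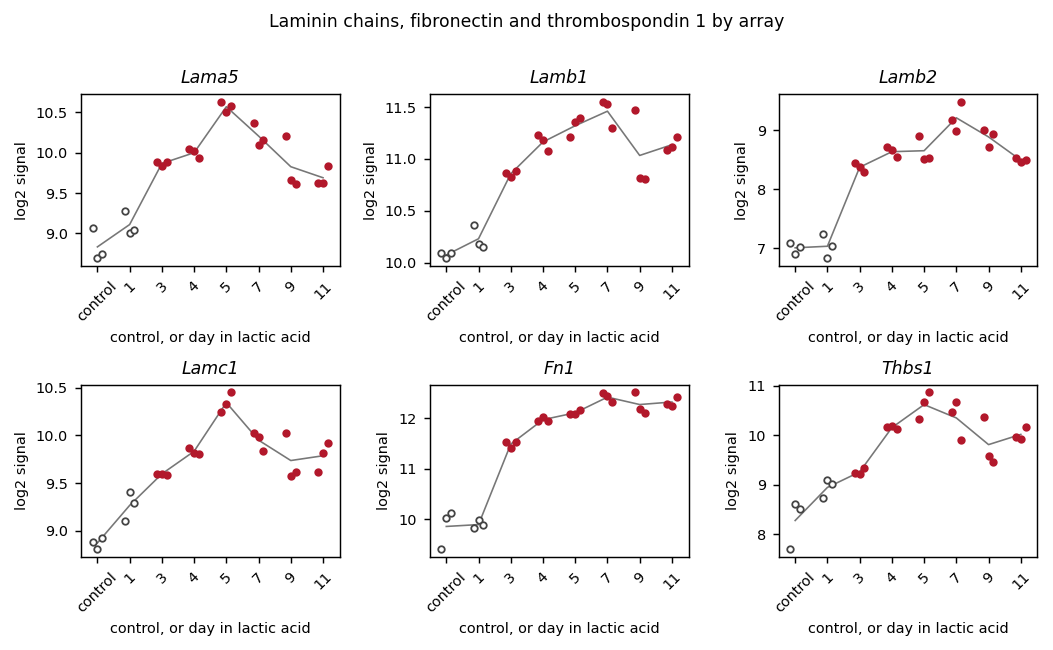
Log2 signal of Lama5, Lamb1, Lamb2, Lamc1, Fn1 and Thbs1 on each of the 24 arrays, by group, with 3 points a group; the line joins group means, filled points mark days called against control and open points days not called. All 6 genes sat above control on every day from 3 to 11, and none was called on day 1.

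The stretches before the annotated starts of 3 of these laminin genes are shown because the chains rose together, and that of Itgb5 because it was the integrin beta subunit with the largest rise. They come from RefSeq (GRCm38.p6), are cut from windows of 250 bases before and 50 after the start, and hold only bases outside the gene itself. Each is printed 5′ to 3′ on the gene's strand, with capitals marking GGGCGG or its reverse complement CCGCCC, the core of the GC box. They lie at chr2:180225905-180226109 on the minus strand for Lama5, chr12:31265043-31265145 on the plus strand for Lamb1, chr9:108479612-108479846 on the plus strand for Lamb2 and chr16:33829415-33829664 on the plus strand for Itgb5. The Lama5 stretch overlaps the predicted gene Gm52542 and the Lamb1 stretch overlaps Gm32899.
Lama5: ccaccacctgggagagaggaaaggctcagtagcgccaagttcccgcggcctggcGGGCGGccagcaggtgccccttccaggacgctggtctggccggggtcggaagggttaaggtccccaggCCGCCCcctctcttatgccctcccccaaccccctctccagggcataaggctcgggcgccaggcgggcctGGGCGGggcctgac
Lamb1: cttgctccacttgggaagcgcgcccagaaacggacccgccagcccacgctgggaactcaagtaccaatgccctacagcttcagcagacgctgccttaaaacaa
Lamb2: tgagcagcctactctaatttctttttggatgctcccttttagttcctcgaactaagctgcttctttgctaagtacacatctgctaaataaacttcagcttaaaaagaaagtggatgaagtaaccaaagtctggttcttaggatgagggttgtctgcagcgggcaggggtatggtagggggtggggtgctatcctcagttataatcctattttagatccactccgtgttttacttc
Itgb5: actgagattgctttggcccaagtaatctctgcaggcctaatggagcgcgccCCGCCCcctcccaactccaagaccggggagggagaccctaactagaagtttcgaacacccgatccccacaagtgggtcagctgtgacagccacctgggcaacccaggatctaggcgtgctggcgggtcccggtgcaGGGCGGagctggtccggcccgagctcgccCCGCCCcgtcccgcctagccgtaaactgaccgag
The Lama5 and Itgb5 stretches held 3 GC boxes each and the Lamb1 and Lamb2 stretches held none, and their GC content was 71.7%, 65.2%, 58.3% and 43.0%. The full windows, which include bases not printed, held 4 for Lama5, 3 for Itgb5, 2 for Lamb1 and 0 for Lamb2. The stretch of Itga1, the integrin subunit with the largest change, was also read and is not printed. It held 0 GC boxes, as did its full window, and its GC content was 57.6%. In the full 300-base windows, of which 60 members had 66, GGGCGG on either strand was present in 53.0%, against 35.7% of all 32851 windows. CCAAT was present in 25.8% against 37.4%, TATAAA in 7.58% against 13.6%, and TGANTCA, the AP-1 motif, in 6.06% against 7.81%, all on both strands. These shares describe letters in a window only.

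Fn1 and Thbs1, secreted glycoproteins of the matrix, rose as well. Fibronectin, encoded by Fn1, is assembled by cells into fibrils through integrins. Its signals were 9.41, 10.03 and 10.13 in control, 9.82, 9.98 and 9.88 on day 1, and 11.52, 11.41 and 11.53 on day 3. They were 12.49, 12.43 and 12.33 on day 7 and 12.29, 12.25 and 12.42 on day 11. Day 1 lay within the control range, and every array from day 3 on was above it. Fn1 rose by 1.63 (3.09-fold, SE 0.14, adjusted p = 7.28e-09) on day 3 and 2.56 (5.88-fold, adjusted p = 2.46e-12) on day 7, the largest change of any member on any day. Day 11 stood 0.84 above day 3 (SE 0.14, adjusted p = 2.74e-04). Control replicate 1 lay below the other 2 control arrays, as it did for Thbs1.

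Thrombospondin 1, encoded by Thbs1, binds integrins and CD47 and activates latent TGF-beta. Its signals were 7.70, 8.61 and 8.52 in control, 8.74, 9.09 and 9.01 on day 1, and 9.24, 9.21 and 9.33 on day 3. Day 5 gave 10.33, 10.67 and 10.87, day 9 gave 10.38, 9.59 and 9.47, and day 11 gave 9.97, 9.92 and 10.17. All treated arrays were above all control arrays. The change was 0.67 on day 1 (SE 0.23, adjusted p = 0.0939; 0.77, adjusted p = 0.0409 without the 3 arrays), 0.98 on day 3 (adjusted p = 0.0021) and 2.34 on day 5 (5.07-fold, SE 0.23, adjusted p = 4.18e-08). On day 9 it was 1.54 with all arrays and 2.10 with replicate 1 alone.

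Of the 27 integrin subunits, 7 were higher on day 5 (25.9%, against 17.2% of all genes) and 0 lower (0%, against 10.3%; 0 also at an unadjusted p below 0.05 by limma). Itga1, Itga10 and Itgb5 were higher on all 6 days from day 3. The 8 subunits that pair into receptors of collagen and laminin gave 4 of the 7. Itga1, the alpha subunit of a collagen receptor with a preference for type IV collagen, had the largest integrin change. Its signals were 6.59, 6.45 and 6.51 in control, 6.47, 6.35 and 6.02 on day 1, and 8.58, 8.58 and 8.74 on day 3. They were 8.99, 9.01 and 8.99 on day 4, 7.92, 8.04 and 7.50 at day 7, and 7.55, 7.39 and 7.66 on day 11. Itga1 was thus highest on days 3 to 5, and its later arrays lay between those and control without overlapping either. The change was 2.48 on day 4 (5.57-fold, SE 0.18, adjusted p = 2.73e-10) and 1.02 on day 11 (SE 0.18, adjusted p = 1.16e-04), and day 11 stood at -1.10 against day 3 (SE 0.18, adjusted p = 2.13e-04). On day 9 it was 0.74 with all arrays (adjusted p = 0.00288) and 1.28 with replicate 1 alone.

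Itga10, the alpha subunit of another collagen receptor, was dim: it passed the median of all genes on 18 of 24 arrays. Its signals were 4.42, 4.62 and 4.48 in control, 5.24, 5.54 and 5.33 on day 3, 5.15, 5.02 and 5.32 at day 4, and 6.75, 6.87 and 6.65 on day 5. On day 7 they were 5.84, 5.84 and 5.65, and on day 11 they were 5.24, 5.30 and 5.04. Day 5 stood above every other group, at 2.25 over control (4.77-fold, SE 0.17, adjusted p = 7.69e-10) and 1.60 over day 4 (SE 0.17, adjusted p = 7.16e-06).

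Itga2, the alpha subunit of a receptor for fibrillar collagen, went both ways. Its signals were 5.53, 5.92 and 6.06 in control, 6.05, 6.61 and 6.50 on day 1, 5.13, 5.47 and 5.54 at day 4, 6.82, 6.92 and 6.75 on day 5, and 5.60, 5.92 and 5.61 at day 7. The day 5 arrays were all above control. The day 11 arrays of 5.39, 5.48 and 5.36 were all below it without a call (-0.43, adjusted p = 0.0522; 0.0177 without the 3 arrays), and the other days overlapped it. The change of 0.99 on day 5 (SE 0.16, adjusted p = 3.29e-05) held its call in every setting tried. Those of 0.55 on day 1 (adjusted p = 0.0462; 0.72, adjusted p = 0.00639 without the 3 arrays) and -0.46 on day 4 (adjusted p = 0.0351) did not. For day 1 the adjusted p was 0.223 without control replicate 1, 0.0966 without control replicate 2, 0.0819 without day 1 replicate 2 and 0.0856 without day 1 replicate 3. For day 4 it was 0.118 without control replicate 2, 0.186 without control replicate 3 and 0.204 without day 4 replicate 1. Median centring ended both calls as well (adjusted p = 0.066 and 0.0704).

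The laminin-binding subunits differed. Itga3, the alpha subunit of a receptor for laminins with the alpha 3 or alpha 5 chain, was at 10.65, 10.56 and 10.62 in control, 10.92, 10.94 and 10.91 on day 1, and 9.94, 10.07 and 10.00 on day 3. Day 1 lay above control without a call (0.31, adjusted p = 0.256), and day 3 lay below it with one, at -0.60 (SE 0.16, adjusted p = 0.00541). The day 9 arrays of 10.76, 9.87 and 9.93 straddled control. Their called difference of -0.43 (adjusted p = 0.049) became 0.15 (adjusted p = 0.473) with replicate 1 alone, and the adjusted p passed 0.05 without any 1 array of either group except day 9 replicate 1. Itgb4, the beta subunit of the hemidesmosome, was at 6.65, 6.48 and 6.66 in control, 7.16, 7.18 and 7.04 on day 3, 7.24, 7.46 and 7.54 at day 5, and 6.40, 6.37 and 6.39 on day 11. It rose by 0.53 on day 3 (SE 0.12, adjusted p = 0.00208) and 0.82 on day 5 (adjusted p = 1.78e-05), and on day 11 it stood at -0.21 (adjusted p = 0.266), with all 3 arrays below control. Its partner Itga6 was at 9.21, 9.29 and 9.41 in control and 9.48, 9.96 and 9.81 on day 1, a difference of 0.45 that was not called (adjusted p = 0.0911; 0.58, adjusted p = 0.00263 without the 3 arrays).

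Of the 8 subunits of receptors for fibronectin, vitronectin and other ligands with the RGD sequence, Itgb5 rose and Itgb3 fell over the later days, and both can pair with Itgav. Itgb5 was at 7.90, 8.24 and 8.35 in control, 7.67, 7.80 and 7.81 on day 1, 8.51, 8.56 and 8.74 at day 3, 9.47, 9.70 and 9.73 on day 5, and 9.39, 9.45 and 9.49 at day 11. Its day 1 arrays all lay below control, and its arrays from day 3 on all lay above. The day 1 difference of -0.40 was not called (adjusted p = 0.0744). The rise was 0.44 on day 3 (SE 0.13, adjusted p = 0.0131), 1.49 on day 7 (2.81-fold, adjusted p = 4.30e-09) and 1.28 on day 11 (adjusted p = 4.81e-08). The day 3 call was lost without control replicate 1 (adjusted p = 0.111), without day 3 replicate 3 (adjusted p = 0.0723) and after median centring (adjusted p = 0.0743).

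Itgb3 was at 8.10, 8.08 and 8.14 in control, 8.25, 8.38 and 8.28 on day 5, 7.79, 7.90 and 7.58 at day 7, 7.52, 6.82 and 7.29 on day 9, and 7.38, 7.22 and 7.36 at day 11. Its arrays stood above control on day 5 without a call (0.20), and below it with a call on days 7, 9 and 11. They were also all below control, without a call, at 7.77, 7.83 and 7.77 on day 1 (-0.31, adjusted p = 0.166), 7.92, 7.98 and 8.05 at day 3 (-0.12, adjusted p = 0.576), and 7.80, 7.83 and 7.73 on day 4 (-0.32, adjusted p = 0.0774). The change was -0.89 on day 9 (SE 0.13, adjusted p = 9.32e-06; -0.59 with replicate 1 alone) and -0.79 on day 11 (adjusted p = 4.73e-05). The day 7 change of -0.35 (adjusted p = 0.0498) lost its call without any 1 array of either group other than day 7 replicate 2, with adjusted p-values from 0.0924 to 0.228. Itgav, the alpha subunit, was at 9.36, 9.50 and 9.61 in control, 10.24, 10.30 and 10.40 on day 5, and 9.54, 9.54 and 9.65 on day 11. Its day 5 arrays were clear of control, at 0.82 (SE 0.15, adjusted p = 1.17e-04), and its day 11 arrays were not. On day 7 it was 0.50 (adjusted p = 0.0121; 0.0646 without control replicate 1), and on day 9 it was 0.16 (adjusted p = 0.488) or, with replicate 1 alone, 0.52 (adjusted p = 0.00156). The fibronectin receptor subunit Itga5 was never called against control: its change ranged from -0.36 on day 3 to 0.31 on day 5.

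Itgb1, the beta subunit shared by most matrix-binding integrins, was already high and moved little. Its signals were 10.45, 10.41 and 10.51 in control, 10.85, 10.84 and 10.78 on day 4, and 10.90, 10.92 and 10.95 on day 11. The groups did not overlap, and the rise was 0.37 on day 4 (SE 0.10, adjusted p = 0.00915), 0.43 on day 9 (adjusted p = 0.00262) and 0.47 on day 11 (1.38-fold, adjusted p = 0.00126). The day 7 call (0.33, adjusted p = 0.0211) was lost after median centring (adjusted p = 0.0616), and without control replicate 1 (0.0549), control replicate 2 (0.0778), day 7 replicate 1 (0.0946) or day 7 replicate 2 (0.0595). On day 5 its rise of 0.28 was not called (adjusted p = 0.0524).

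Of the 8 integrin subunits known chiefly from leukocytes, 6 were called on no day and Itgb2 and Itgb7 were called on some. Itgb2, the common beta subunit of the leukocyte adhesion integrins, was at 8.34, 7.77 and 7.77 in control, 7.41, 7.05 and 7.12 on day 1, 8.76, 9.42 and 9.67 at day 5, and 8.23, 8.25 and 8.35 on day 11. Day 1 was below and day 5 above every control array, and day 11 overlapped control. The day 5 change was 1.32 (SE 0.25, adjusted p = 2.28e-04). The day 1 change of -0.76 was called without the 3 arrays only (-0.87, adjusted p = 0.0212). On day 7 its 0.68 (adjusted p = 0.0467) lost the call without control replicate 2 or 3 (0.163 each), day 7 replicate 1 (0.145) or day 7 replicate 2 (0.211), and after cyclic loess (0.122). Itgb7 was at 8.29, 8.25 and 8.24 in control, 7.59, 7.55 and 7.79 on day 3, 7.50, 7.50 and 7.57 at day 4, and 8.43, 8.32 and 8.55 on day 5. On day 1 it stood at -0.54 (adjusted p = 0.106), or -0.79 and called without the 3 arrays (adjusted p = 2.46e-04). It fell by 0.74 on day 4 (SE 0.19, adjusted p = 0.00484) and on day 3 stood at -0.62 (adjusted p = 0.0187). The day 3 call was lost after cyclic loess (0.051) and without control replicate 1 (0.0539), day 3 replicate 1 (0.0576) or day 3 replicate 2 (0.0688). Of 11 leukocyte markers, 10 were below the median of all genes on every array, among them the pan-leukocyte gene Ptprc at 3.10 to 4.29. The exception was Cd14, above it on all 24 arrays at 5.26 to 7.19 and called on 3 days. Of the markers below the median, Fcer1g was called on 3 days and Cd3e on 1. The mean of the 11 markers was 3.58 to 3.66 in control, 3.51 to 3.93 on day 1, 3.71 to 3.86 on day 3, 3.56 to 3.65 on day 4 and 3.70 to 3.84 on day 5. It was 3.56 to 3.61 on day 7, 3.56 to 3.83 on day 9 and 3.53 to 3.72 on day 11. Its part in the Itgb2 and Itgb7 changes was not tested.

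**Figure D3:**
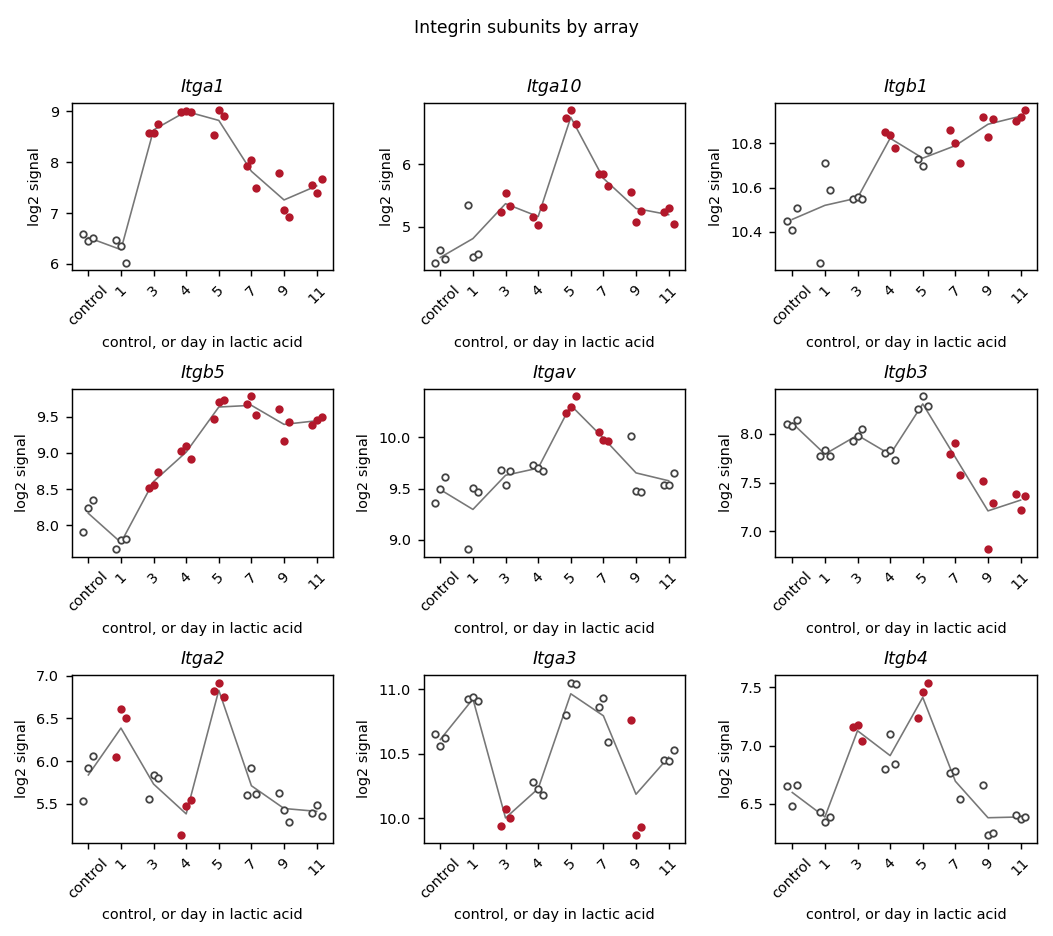
Log2 signal of integrin subunit genes on each of the 24 arrays, by group, with 3 points a group; the line joins group means, filled points mark days called against control and open points days not called. Itga1 was highest on days 3 to 5, Itga10 and Itga2 on day 5, while Itgb5 stayed high to day 11 and Itgb3 was lowest on days 9 and 11.

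Of the 44 collagens, 8 were higher and 2 lower on day 5 (18.2% and 4.55%), against 17.2% and 10.3% of all genes. On day 11, 1 was higher and 4 lower (2.27% and 9.09%), against 14.0% and 11.8%. The largest rises, all on day 5, were those of the basement membrane collagens Col4a5, Col18a1 and Col4a2. The fibril-associated Col16a1 followed at 1.09. Other basement membrane chains did not rise: Col4a3, Col4a4 and Col4a6 were called on no day, and Col15a1 was called lower on day 5. Col4a5, the type IV alpha 5 chain, was at 6.03, 5.79 and 5.81 in control, 5.37, 5.64 and 5.68 on day 1, 6.73, 6.80 and 6.81 at day 3, 7.75, 7.72 and 8.17 on day 5, and 6.37, 6.43 and 6.45 at day 11. Its day 1 arrays lay below control without a call (-0.31, adjusted p = 0.225), and every later array lay above. It rose 4.00-fold on day 5 (log2 SE 0.15, adjusted p = 6.65e-10) and by 0.54 in log2 units on day 11 (adjusted p = 0.00774). On day 9 it was 0.60 with all arrays and 0.99 with replicate 1 alone.

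Col4a1 and Col4a2 encode the alpha 1 and alpha 2 chains of the common type IV trimer. They lie head to head on opposite strands of chromosome 8 (RefSeq, GRCm38.p6). The start sites used for their promoter windows, 11312826 for Col4a1 and 11312805 for Col4a2, are 21 bases apart. The annotated span of Col4a1 runs further, to 11312889, so the spans of both genes overlap. Col4a1 was at 8.22, 8.18 and 8.24 in control, 7.64, 7.64 and 7.65 on day 3, 7.81, 7.89 and 7.75 at day 4, 8.55, 8.82 and 8.83 on day 5, and 7.97, 7.84 and 7.95 at day 11. It was clear of control in both directions: -0.57 on day 3 (SE 0.12, adjusted p = 6.52e-04), -0.40 on day 4 (adjusted p = 0.0128; 0.0551 without day 4 replicate 3) and 0.52 on day 5 (adjusted p = 0.00156). Col4a2 was at 8.32, 8.21 and 8.35 in control, 8.26, 8.22 and 8.23 on day 3, 9.36, 9.45 and 9.55 at day 5, 9.02, 9.01 and 9.05 on day 7, and 8.53, 8.47 and 8.58 at day 11. It overlapped control on days 3 and 4, and on day 9 it was 0.29 (adjusted p = 0.147) with all arrays and 0.77 (adjusted p = 3.27e-05) with replicate 1 alone. It rose by 1.16 on day 5 (2.24-fold, SE 0.14, adjusted p = 1.08e-06) and 0.73 on day 7 (adjusted p = 3.24e-04). Both genes rose from day 4 to day 5, Col4a1 by 0.92 (SE 0.12, adjusted p = 4.70e-05) and Col4a2 by 1.17 (SE 0.14, adjusted p = 2.59e-05). Within each array, Col4a2 minus Col4a1 was 0.08 ± 0.04 (SD, n = 3) in control, 0.59 ± 0.02 on day 3, 0.72 ± 0.09 on day 5 and 0.61 ± 0.04 on day 11. This difference was above control by 0.28 to 0.64 on the 7 treated days, with no overlap. Day 1 gave 0.28 with all arrays and 0.17 without replicate 1, and day 9 gave 0.47 and, with replicate 1 alone, 0.64. The 2-sided exact permutation p was 0.10 on each day, before and after adjustment over the 7 days, the smallest that 3 against 3 arrays can give.

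Col18a1, a basement membrane collagen whose end fragment is endostatin, was at 7.75, 7.43 and 7.27 in control, 7.70, 7.62 and 7.55 on day 4, 8.77, 8.94 and 8.88 at day 5, 8.74, 8.79 and 8.66 on day 7, 8.45, 7.33 and 7.51 at day 9, and 7.64, 7.76 and 7.70 on day 11. It stood clear of control on days 5 and 7 and overlapped it on days 4, 9 and 11. The change was 1.38 on day 5 (2.60-fold, SE 0.19, adjusted p = 3.45e-06) and 1.25 on day 7 (adjusted p = 1.17e-05). On day 9 it was 0.28 (adjusted p = 0.311) with all arrays and 0.97 (adjusted p = 5.73e-05) with replicate 1 alone. Col8a1, a network collagen of vessel walls and basement membranes, went the other way, at 8.65, 8.76 and 8.71 in control and 8.13, 7.93 and 8.10 on day 3. It fell by 0.65 on day 3 (SE 0.14, adjusted p = 8.72e-04) and stood at -0.45 on day 4 (adjusted p = 0.0173; 0.0623 without control replicate 2).

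**Figure D4:**
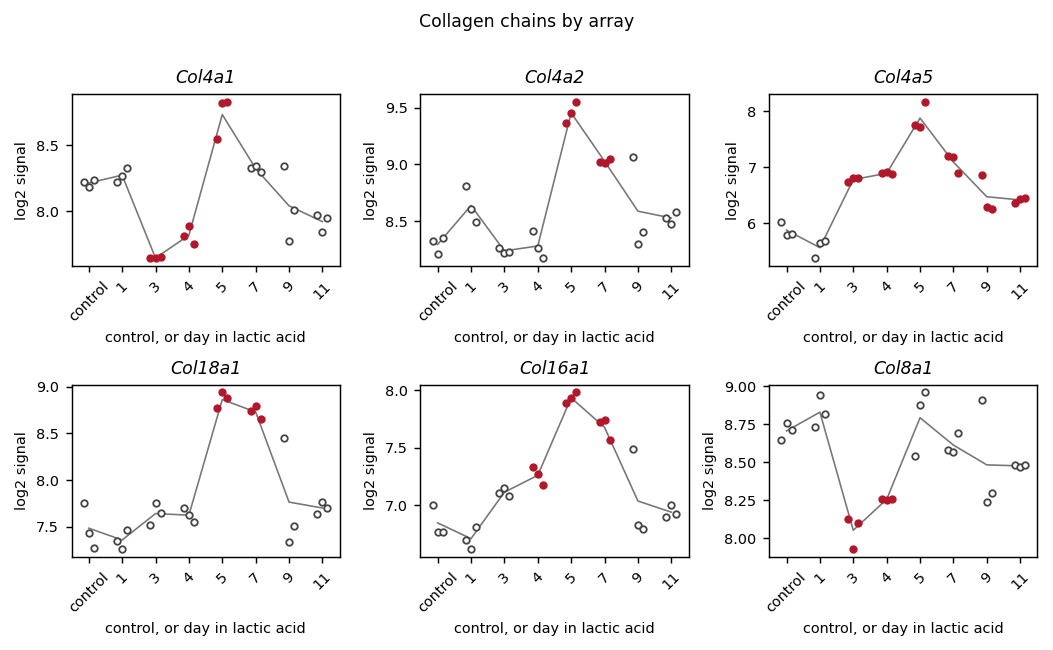
Log2 signal of collagen genes on each of the 24 arrays, by group, with 3 points a group; the line joins group means, filled points mark days called against control and open points days not called. Col4a5, Col4a2 and Col18a1 were highest on day 5, and Col4a1 lay below control on days 3 and 4 and above it on day 5.

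Few of the fibrillar collagens, the main collagens of stroma, were called. Of 11, Col5a1 was called higher on day 5, when 17.2% of all genes were, and Col27a1 lower on day 7, when 9.44% were. The other 9 were called on no day with all 24 arrays. Several were dim: Col5a2 and Col11a1 were below the median of all genes on every array, and Col24a1 passed it on 1. Col1a1 and Col3a1 averaged 5.56 and 5.32 over the 24 arrays, where that median was 5.01 to 5.26. Their lack of calls therefore does not bound a change. Col1a1 and Col1a2 encode the chains of type I collagen and Col3a1 that of type III. Col1a1 was at 5.54, 5.42 and 5.52 in control, 5.68, 5.95 and 5.78 on day 3 and 5.54, 5.51 and 5.34 on day 11. The day 3 arrays lay above control, but the difference of 0.30 was not called (SE 0.15, adjusted p = 0.139), and day 11 differed by -0.03 (adjusted p = 0.929). Col3a1 ranged from -0.22 on day 7 to 0.03 on day 9, and Col1a2 from -0.32 on day 7 to 0.08 on day 3. Col5a1, a minor chain that sets the width of type I fibrils, was at 6.69, 6.57 and 6.47 in control, 6.49, 6.44 and 6.35 on day 4, and 7.05, 7.25 and 7.33 on day 5. Only day 5 stood clear above control, at 0.63 (SE 0.12, adjusted p = 1.61e-04). Col27a1 was at -0.46 on day 7 (adjusted p = 0.0318), a call lost without any 1 array of either group other than control replicate 3, with adjusted p-values from 0.0631 to 0.127. Of 12 fibroblast markers, 8 were below the median of all genes on every array, including Dcn at 2.44 to 4.14 and Lum at 1.80 to 2.72. The exceptions on all 24 arrays were Pdgfra, at 7.28 in control, 9.06 on day 11 and 7.18 to 10.23 over the arrays, and S100a4, at 9.37 in control and 6.66 on day 11, called on 6 and 7 days. Pdgfrb was above the median on 21 arrays, at 4.83 to 7.22, and was called on 6 days. The mean of the list was 4.43 to 4.54 in control, 4.21 to 4.66 on day 1, 4.73 to 4.86 on day 3, 4.63 to 4.78 on day 4 and 4.67 to 4.84 on day 5. It was 4.49 to 4.63 on day 7, 4.45 to 4.52 on day 9 and 4.51 to 4.61 on day 11. Its part in the collagen changes was not tested.

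Type VI and other collagens were mixed. Col6a1, a chain of the beaded filaments around cells, was at 5.95, 6.15 and 6.16 in control and 6.57, 6.86 and 6.87 on day 5, clear of each other, and rose by 0.68 (SE 0.14, adjusted p = 4.52e-04). Its day 4 change of 0.40 (adjusted p = 0.0337) lost the call without control replicate 1 (0.149), 2 (0.0519) or 3 (0.0504) or day 4 replicate 2 (0.168). Col6a2 was called on no day. Col6a5 was lower on 5 days, at 5.35, 5.13 and 5.26 in control, 4.80, 4.80 and 4.57 on day 4, and 4.74, 4.76 and 4.70 on day 11, with changes of -0.53 (SE 0.13, adjusted p = 0.00253) and -0.52 (adjusted p = 0.00315). The gene has more than 1 probe set, and with their mean no day was called: day 4 was -0.19 (adjusted p = 0.289) and day 11 was -0.26 (adjusted p = 0.127). Its calls on days 1, 5 and 9 were also lost without control replicate 1 (0.105, 0.0555 and 0.124), and the day 9 call with replicate 1 alone (-0.45, adjusted p = 0.0598).

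Among the rest, Col9a3 stood at -0.58 on day 4 (SE 0.17, adjusted p = 0.01; 0.0547 without control replicate 1 and 0.0647 without day 4 replicate 2). Col13a1, Col15a1 and Col23a1 were each called lower on 1 day, at -0.44 on day 11, -0.39 on day 5 and -0.49 on day 7 (adjusted p = 0.0277, 0.0495 and 0.0248). Each of these calls was lost without control replicate 1 (0.109, 0.126 and 0.0621). Without day 11 replicate 3 the Col13a1 value was -0.34 (0.164), without day 5 replicate 3 the Col15a1 value was -0.29 (0.218), and without control replicate 2 the Col23a1 value was -0.43 (0.104). Another 2 collagens that rose on day 5 are named after their values were seen. Col16a1, which associates with fibrils, was at 7.00, 6.77 and 6.77 in control and 7.89, 7.93 and 7.98 on day 5. Col7a1, the anchoring fibril collagen, was at 6.10, 6.11 and 6.11 in control and 6.51, 6.75 and 6.60 on day 5. Neither overlapped control, and they rose by 1.09 (SE 0.14, adjusted p = 1.42e-06) and 0.52 (SE 0.11, adjusted p = 9.98e-04). With day 9 replicate 1 alone, day 9 calls were also made for Col16a1 at 0.64 (adjusted p = 3.43e-04), Itga7 at 0.70 (adjusted p = 0.0119), Itgal at -0.60 (adjusted p = 0.00414) and Col23a1 at -0.57 (adjusted p = 0.0164), and without the 3 arrays a day 1 call for Col19a1 at -0.39 (adjusted p = 0.0297).

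The days of treatment also differed from each other for some members. An F test over the 7 treated days was passed by 35 of the 84 genes, a smaller share than the 44.8% of all genes. Between day 1 and day 3, 15 were higher and 7 lower (17.9% and 8.33%), against 13.6% and 13.7% of all genes, or 10 and 9 after median centring. The largest rise was that of Itga1, at 2.35 (SE 0.18, adjusted p = 1.10e-09), followed by Fn1 at 1.59 (adjusted p = 9.57e-09), and the falls included Itga3 at -0.92 (adjusted p = 8.06e-05) and Col8a1 at -0.78 (adjusted p = 1.25e-04). Between day 3 and day 11, 7 were higher and 8 lower (8.33% and 9.52%), against 8.33% and 5.32% of all genes, or 4 and 7 after cyclic loess, 11 and 3 after median centring, and 12 and 16 without the 3 arrays. Leaving out any 1 array of days 3 or 11 gave 5 to 9 called genes in place of 15. Fn1 and Itgb5 each stood 0.84 higher on day 11 (adjusted p = 2.74e-04 and 9.80e-05), and Itgb4 stood at -0.74 (adjusted p = 2.36e-04).

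Day 5 was the high point of most rising members. Of the 23 that rose on some day, 16 had their largest rise on day 5, 5 on day 7, Itga1 on day 4 and Itgb1 on day 11. Days 5 and 7 also had the largest shares of all genes called higher, 17.2% and 16.0%. The day of the largest rise was not tallied over all genes. The steps around day 5 were tested after the peaks of the members had been seen. From day 4 to day 5, 20 of the 84 genes rose (23.8%) and 0 fell by limma (1 at an unadjusted p below 0.05), against 9.06% and 3.29% of all genes. Without the 3 arrays these counts were 29 and 1. From day 5 to day 9, 20 fell (23.8%) and 0 rose (1 at an unadjusted p below 0.05), against 15.0% and 5.45% of all genes. Without the 3 arrays the count of falls was 13, with Itga8 and Itgal among them. Itga3, Itga6, Itgav, Thbs1, Lama5, Lamc1, Itgb2, Col18a1 and Col7a1 were then no longer called, with Lama5 at -0.74 (adjusted p = 5.98e-04) with all arrays and -0.36 (adjusted p = 0.125) without, and Col18a1 at -1.10 (adjusted p = 2.03e-04) and -0.41 (adjusted p = 0.0995). The falls of Itga10 (-1.47 and -1.21), Itga2 (-1.38 and -1.19), Col4a5 (-1.40 and -1.01) and Itgb3 (-1.09 and -0.78) were called both ways. Fn1, Lamb1 and Lamb2 were not called in either step, and from day 4 to day 5 they moved by 0.14, 0.15 and 0.01 (adjusted p = 0.606, 0.533 and 0.971).

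**Figure D5:**
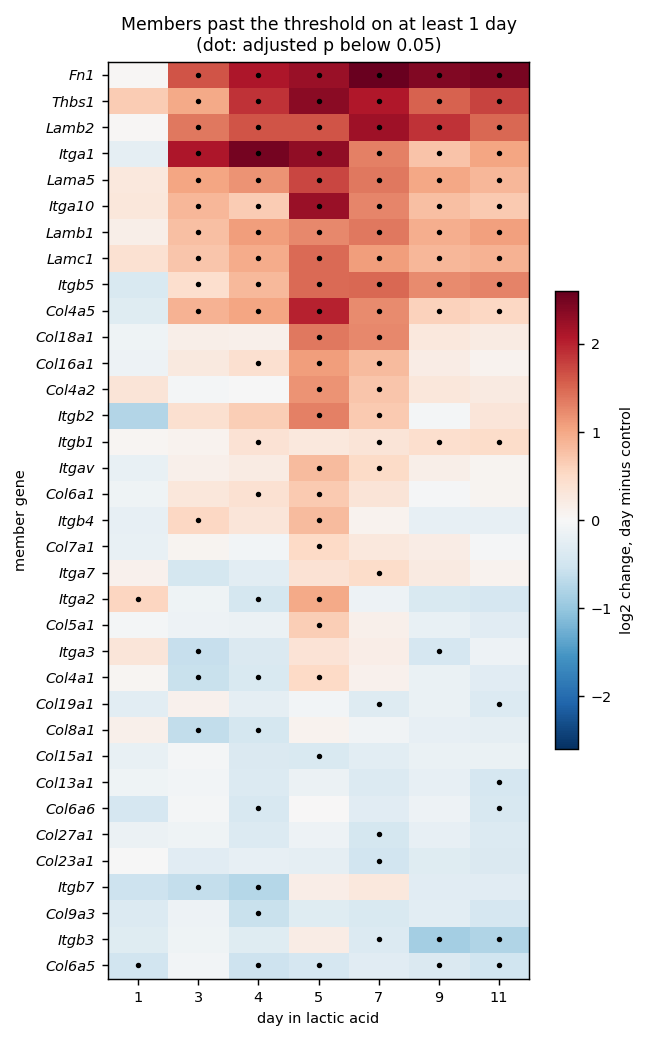
Change from control in log2 units on each treated day for the 35 genes called on at least 1 day; a dot marks an adjusted p below 0.05. The rises cluster around day 5, with Fn1, Thbs1, Lamb2, Lamb1 and Itgb5 among the genes still called higher on day 11. Day 5 also had the largest share of all genes called higher, 17.2%.

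Signal strength differed between called and uncalled members. Of 37 members above the median of all genes on all 24 arrays, 29 were called on some day. Of 30 members below it on all 24 arrays, 1 was called, Col19a1, and of the other 17 members 5 were called. The same split by signal was not counted over all genes. It therefore describes the members only and does not set them apart from other bright or dim genes. Col19a1 was named after its values were seen; it was at 4.46, 4.53 and 4.42 in control and 4.25, 4.10 and 4.02 on day 11, a change of -0.35 (adjusted p = 0.0309) that lost its call without control replicate 1 (0.0653), 2 (0.107) or 3 (0.052) and without day 11 replicate 2 (0.0867) or 3 (0.139). The dim members included Itga4, Itga8, Itgb6, the beta subunit of an epithelial receptor that activates TGF-beta, Itgb8, Col5a2 and Lama3. Itgb3bp was also dim and was called on no day against control.

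Genes that act with these members were counted in 4 lists. Of 26 measured genes that fold, modify, crosslink or process collagen, 2 were higher and 0 lower (2 at an unadjusted p below 0.05 by limma) on day 1 (4 and 1 without the 3 arrays), 4 and 4 at day 3, 10 and 2 on day 5, and 5 and 5 at day 11. P4ha1, a subunit of the prolyl hydroxylase that lets the triple helix form, rose by 0.74 on day 3 (SE 0.16, adjusted p = 7.80e-04) and 1.11 on day 11 (adjusted p = 5.20e-06). Mia3, which helps load collagen for export from the endoplasmic reticulum, rose by 1.13 (adjusted p = 2.14e-06) and 1.09 (adjusted p = 2.86e-06). Pcolce2, an enhancer of procollagen cleavage, was lower on both days, at -1.47 (adjusted p = 2.55e-08) and -1.10 (adjusted p = 1.34e-06). P3h2, another prolyl hydroxylase, rose by 0.78 on day 1 (adjusted p = 0.0201; 1.01, adjusted p = 3.17e-05 without the 3 arrays).

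Of 33 other matrix glycoproteins, 1 was higher and 1 lower on day 1 (1 and 0 without the 3 arrays), 5 and 4 at day 3, 9 and 1 on day 5, and 5 and 2 at day 11. Ltbp3, which holds latent TGF-beta in the matrix, rose by 1.20 on day 3 (adjusted p = 3.56e-05) and 1.48 on day 11 (adjusted p = 1.75e-06). The matricellular genes Ccn1 and Ccn2 were lower on day 3, at -2.30 (SE 0.17, adjusted p = 6.32e-10) and -1.49 (adjusted p = 2.44e-06), and Ccn2 on day 11, at -0.69 (adjusted p = 0.00929). Sparc, a collagen-binding glycoprotein, was lower by day 1 at -0.48 (adjusted p = 0.0475; -0.29 and no longer called, adjusted p = 0.0719, without the 3 arrays) and on day 11 at -0.81 (adjusted p = 7.17e-05).

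Of 34 focal adhesion genes, 3 were higher and 1 lower on day 1 (5 and 1 without the 3 arrays), 3 and 11 at day 3, 11 and 3 on day 5, and 7 and 7 at day 11. Those that fell on day 3 included the actin crosslinkers Flna, at -0.95 (adjusted p = 3.17e-06), and Actn4, at -0.93 (adjusted p = 5.14e-06). Tns1, a tensin that links integrins to actin, was lower on day 1 at -1.36 (SE 0.22, adjusted p = 7.25e-04; -1.58 without the 3 arrays) and on day 11 at -1.81 (adjusted p = 8.36e-07), while its relatives Tns4 rose by 1.17 on day 1 (adjusted p = 8.69e-04; 1.26 without them) and Tns3 by 0.77 on day 11 (adjusted p = 5.88e-05). Of 18 genes of non-integrin matrix receptors and the hemidesmosome, 1 was higher and 1 lower on day 1 (2 and 1 without the 3 arrays), 4 and 3 at day 3, 10 and 0 (0 also unadjusted) on day 5, and 9 and 2 at day 11. Cd82, a tetraspanin that associates with integrins, rose by 1.16 on day 3 (SE 0.11, adjusted p = 3.90e-08) and 1.40 on day 11 (adjusted p = 1.13e-09). Cd47, a receptor of thrombospondin 1, rose by 0.61 (adjusted p = 2.49e-04) and 1.05 (adjusted p = 1.48e-07). Dag1, dystroglycan, a laminin receptor, was lower at -0.60 (adjusted p = 8.51e-04) and -0.53 (adjusted p = 0.00258), and Plec, plectin, which ties the integrin of the hemidesmosome to keratin, was at -0.92 on day 11 (adjusted p = 2.98e-05). The shares of all genes called on these days were 2.30% higher and 2.52% lower on day 1, 12.4% higher and 13.9% lower on day 3, 17.2% and 10.3% at day 5, and 14.0% and 11.8% on day 11.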

How the data were processed

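The authors deposited log2 signals of 24 Affymetrix arrays of 4T1 cells. Per the submitters' processing notes these come from RMA and Affymetrix Expression Console 1.1, with no settings stated. That the scale is log2 was inferred from its range, 0.96 to 14.71. A 2016 annotation gave 1 symbol to 21789 of 35557 probe sets, several to 1621 and none to 12147. Each gene took the single-symbol probe set whose mean over the 24 arrays was highest, for 19938 genes in all. Of the members, 3 had more than 1 probe set. The members and lists were chosen with earlier results of these data known.

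Samples were grouped by their titles. The 8 group means were estimated in limma 3.58.1 (lmFit, eBayes) under R 4.3.3 (16 residual degrees of freedom, median SD 0.198), and p-values were adjusted by Benjamini-Hochberg over all genes within each comparison. Same-numbered replicates were not paired: their deviations from group means had a median correlation of -0.001 over 84 pairs of arrays, with 16 over 0.1, against 0.001 for 168 pairs of other numbers.

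Members were named by rule: the 3 largest rises and falls past the threshold on each day with all 3 arrays clear of control, the 2 largest of each kind between days 1 and 3 and days 3 and 11, those called in the same direction on at least 5 days, and a set reported whatever its values. Of each list of related genes, up to 2 rises and 2 falls on days 1, 3 and 11 could be named. Itgb2, Itga7, Itgal, Col6a6, Col7a1, Col16a1, Col19a1, Col24a1, Itgb3bp and the dim genes listed beside them were named after their values were seen, as were the steps from day 4 to day 5 and from day 5 to day 9. Alternatives were the mean of a gene's probe sets, omission of the 40% dimmest genes, cyclic loess, median centring, a trended robust variance, array weights, a replicate block, only the 6 arrays compared, omission of each array in turn and omission of the 3 arrays that stood apart. The fit was tested on simulated data. Python 3.11.15 with matplotlib 3.10.9 drew the figures, and the exact permutation test used scipy 1.17.1.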

Additional observations from a re-analysis of the deposited data

Results flagged for a closer look

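Members moved in opposite directions on different days of treatment, and the difference between the days was itself tested with limma. For each gene, the days compared were those of its largest called rise and largest called fall in these same arrays. The adjusted p-values do not allow for that choice, so they add no support beyond the calls themselves. Itga2 was lower than control on day 4 and higher on day 5, and the difference of day 5 from day 4 was 1.45 (SE 0.16, adjusted p = 8.43e-06), with all 3 arrays of day 5 above all 3 of day 4. The fall on day 4 was weak: its arrays reached 5.54, against 5.53 for the lowest control array, and its call was lost without control replicate 2, control replicate 3 or day 4 replicate 1 (adjusted p = 0.118, 0.186 and 0.204) and after median centring (0.0704). Col4a1 was lower than control on day 3 and higher on day 5, and the difference of day 5 from day 3 was 1.09 (SE 0.12, adjusted p = 9.29e-06), again with no overlap. The causes were not tested.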

How the results depend on the processing

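The 84 genes gave 111 calls over the 7 days against control, of which 83 held in every setting run. No count of called genes against control moved beyond 1.5 times on day 5, or from day 4 to day 5. With array weights the fit called many more genes: 40, 27, 42, 52, 39 and 36 on days 1, 3, 4, 7, 9 and 11, 50 between days 1 and 3, 34 between days 3 and 11, 37 between days 5 and 9 and 77 among the treated days; the weights did not fully converge. Without the 3 arrays that stood apart there were 8 on day 1, 35 on day 4, 28 on day 11, 28 between days 3 and 11 and 13 between days 5 and 9. With only the 6 arrays compared there were 0 on day 1 by limma (15 at an unadjusted p below 0.05), 35 on day 4, 37 on day 7, 29 on day 11, 13 between days 1 and 3 and 27 between days 3 and 11. Day 1 had 2 calls in the fit of all arrays, against 1 with the mean of probe sets, 6 without the 40% dimmest genes, 6 after cyclic loess and 1 after median centring. Leaving out 1 array at a time gave 1 to 6 on day 1, with 6 only without day 1 replicate 1, and 5 to 9 between days 3 and 11. With a replicate block the counts were 2, 15, 19, 22, 18, 14 and 17 on the 7 days in order, 21 between days 1 and 3, 13 between days 3 and 11, 19 between days 4 and 5, 20 between days 5 and 9 and 34 among the treated days. The block ended the calls of Itgb3, Itgb2 and Itga7 on day 7 (adjusted p = 0.0607, 0.0506 and 0.0557), Itga3 on day 9 (0.0555), Col15a1 on day 5 (0.0587) and Col6a6 on days 4 and 11 (0.0586 and 0.0517). Signs turned in 3 cases: Itga3 on day 9 was 0.15 without the 3 arrays, and on day 1 Col24a1 was -0.29 and Itgb3bp -0.37 with array weights. The causes were not tested. No dim member's absence of a call bounds its change, since 30 members stayed below the median signal on every array.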
